A study of Mus musculus with 22 samples.

Results

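The interferon response genes are the 38 mouse genes that were chosen by name as a known set: sensors of viral RNA, the transcription factors that carry the interferon signal, antiviral effectors, ubiquitin-like and ADP-ribosylation enzymes, interferon-inducible GTPases, and the MHC class I machinery. They were chosen with earlier results of these data known, so the shares of members called below are descriptions and not independent tests of the set. Of 16556 genes in the count table, 37 carried a listed name, and Samhd1, which has no name there, was found by its Ensembl identifier, ENSMUSG00000027639. After the filter on low counts 37 members were tested, and Oas1a, with 116 reads over all libraries, was not. Kidney cortex of male C57BL/6J mice was read in 22 libraries.

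The mice labelled Pt-CrAT carried Cre under the Ggt promoter, which deletes Crat, the gene of carnitine acetyltransferase, in proximal tubule cells. The comparison mice, labelled fl/fl, had no Cre. There were 3 fl/fl and 3 Pt-CrAT libraries at 12 months with LFD in the title, an abbreviation the labels do not spell out. There were 3 and 3 at 15 months on chow, and 5 and 5 at 24 months on chow. Diet and age both differ between 12 months and the later groups, so the 2 cannot be told apart there. Total counts were 12175804 to 17447367 reads, apart from 53157575 in the Pt-CrAT library CrAT12MLFD345. The 10 proximal tubule markers summed to between 9537 and 73930 CPM (reads scaled to a common library size with TMM factors), and the lowest sums were in Pt-CrAT libraries at 24 months. A single marker, Kap, made up 2853 CPM of the lowest sum and 55719 CPM of the highest.

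Crat, the targeted gene, is read here in whole cortex and so also from cells that keep it. Its level at 24 months was 74.7 ± 24.4 CPM (SD, n = 5) in fl/fl, and in Pt-CrAT it was 36.2 ± 4.41 CPM (exact two-sided permutation p = 0.00794, the smallest 5 against 5 allow). At 12 months it was 78.9 ± 22.5 against 62.5 ± 19.4 CPM (n = 3 each, exact permutation p = 0.4). At 15 months it went against the labels: 45.3 ± 13.3 CPM in the libraries labelled fl/fl and 69.1 ± 5.27 CPM in those labelled Pt-CrAT, with every library of the second above every library of the first (n = 3 each, exact permutation p = 0.1, the smallest 3 against 3 allow). Groups at 15 months are therefore called by their labels, and the change with age is also given as the mean over both labelled genotypes, which an exchange of the 2 labels at 15 months would leave as it is. That mean was added after the data were seen.

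Interferons are secreted when a cell senses foreign or misplaced nucleic acid. Type I interferon binds the receptor chains Ifnar1 and Ifnar2, whose kinases phosphorylate Stat2; complexes that hold Stat2 and Irf9 bind the interferon-stimulated response element (ISRE) in promoters. Interferon gamma acts through its own receptor and the gamma-activated sequence (GAS), and induces Irf1, the GTPases and MHC class I. In the kidney, tubule cells, endothelium and resident leukocytes can all carry this response.

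The members spanned a wide range of levels. QuantSeq reads each transcript once near its 3' end, so CPM here is compared between genes without division by length. H2-K1, a classical MHC class I heavy chain, had the highest mean level at 291 CPM. It was followed by B2m, the light chain shared by all class I molecules (143 CPM), H2-D1, a second heavy chain (124.4 CPM), and Rsad2, the antiviral enzyme viperin (110 CPM). Trim25, the ubiquitin ligase that activates the RNA sensor RIG-I, had 73.8 CPM and Ifi27 61.3 CPM. Oas1a, an oligoadenylate synthetase, was lowest at 0.364 CPM, and Isg15, the ubiquitin-like modifier, had 9.81 CPM. Trim25 varied least of all members within groups (mean coefficient of variation 7.04%), and its highest library was 1.67-fold above its lowest. Ifit2 spanned 24.6-fold and Xaf1 12.4-fold between libraries.

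**Figure D1:**
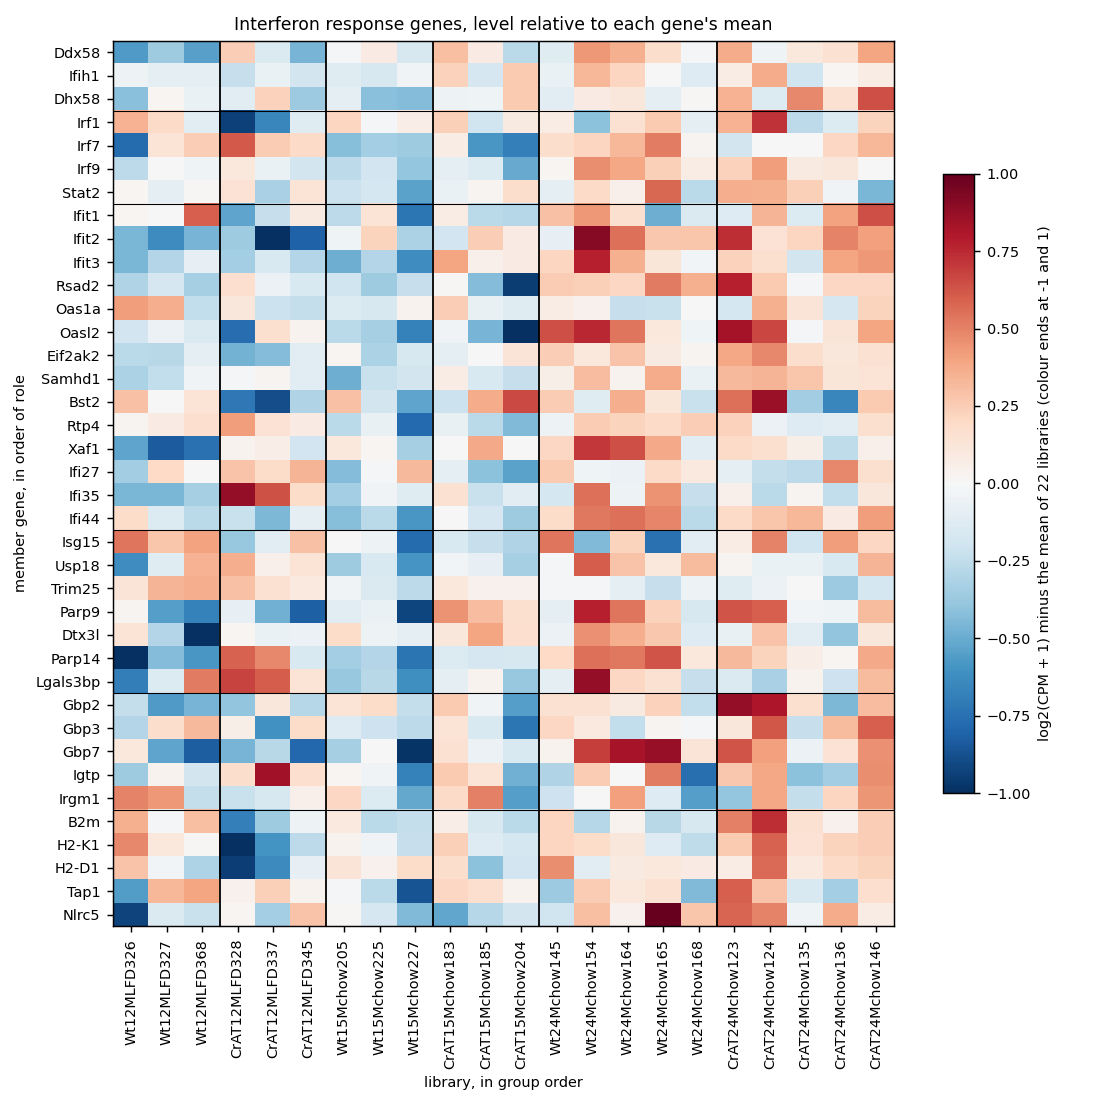
Each row is one of the 38 members in order of role and each column one of the 22 libraries in group order, with vertical lines between groups; colour is log2(CPM + 1) minus the gene's mean over the libraries, from blue (lower) to red (higher). Most 24-month columns are red for most members, the column of Wt15Mchow227 is the bluest, with 4 members above their own mean, and Trim25 and Ifih1 are pale throughout.

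Several members lie in the same region of the genome (GRCm38), though not always next to each other. Ifit2, Ifit3 and Ifit1 start at chr19:34550694, chr19:34583531 and chr19:34640871. Gbp7, Gbp3 and Gbp2 lie on chromosome 3 between 142530342 and 142638008. Parp14, Dtx3l and Parp9 lie on chromosome 16 between 35832874 and 35972605, and H2-K1, Tap1 and H2-D1 on chromosome 17 between 33996017 and 35267499. Whether the authors counted reads by strand is not given in the sources used here. Of the 38 members, 7 overlap another gene of the table on the opposite strand, among them Irf7, Parp9 and Dtx3l, and 2 overlap one on the same strand (Irf9 with Rnf31, Igtp with Irgm2), so reads of these pairs may be mixed. The Ifit3, Oas1a, H2-K1, H2-D1 and Gbp values also carry an uncertainty from near-identical copies.

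Member promoters were searched for the letters of the ISRE and the GAS, as a description without a test. RefSeq promoters (GRCm38.p6, 250 bases before to 50 after the start) were found for 31 of the 38 members, and 7 had no entry: Nlrc5, Parp9, Usp18, Dhx58, Ifi27, Parp14 and Rtp4. The ISRE core, taken as GAAA, any 2 bases and GAAA again and searched on both strands, was in 16 of the 31 (51.6%) and in 3.99% of all 27025 genes with a promoter of that length. The GAS letters TTCNNNGAA, which read the same on both strands, were in 9 of the 31 (29.0%) and in 9.55% of all genes; some matches of the 2 overlap, as in Bst2. Shown here are 6 members with an ISRE core and Irf1 with a GAS match, 5′ to 3′ on the gene's strand, with the matches in capitals; a core on the other strand reads as TTTC, 2 bases and TTTC. Isg15 and Ifit1 are shown for their repeated cores, Ifit3 and Rsad2 as effectors whose levels are given below, Gbp2 as a GTPase, and B2m and Irf1 as the class I light chain and the interferon gamma target.
Isg15 (chr4:156200845-156200914, minus strand): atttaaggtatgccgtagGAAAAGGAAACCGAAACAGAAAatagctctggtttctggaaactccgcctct
Ifit1 (chr19:34640774-34640843, plus strand): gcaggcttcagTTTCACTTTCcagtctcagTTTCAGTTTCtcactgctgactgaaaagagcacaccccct
Ifit3 (chr19:34583377-34583446, plus strand): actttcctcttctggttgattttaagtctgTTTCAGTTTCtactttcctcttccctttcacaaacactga
Rsad2 (chr12:26456533-26456602, minus strand): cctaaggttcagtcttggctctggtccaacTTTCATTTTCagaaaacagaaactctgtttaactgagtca
Gbp2 (chr3:142620574-142620643, plus strand): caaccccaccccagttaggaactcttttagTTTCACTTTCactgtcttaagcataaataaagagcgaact
B2m (chr2:122147518-122147587, plus strand): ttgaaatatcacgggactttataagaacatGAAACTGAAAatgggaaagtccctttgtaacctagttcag
Irf1 (chr11:53769894-53769962, plus strand): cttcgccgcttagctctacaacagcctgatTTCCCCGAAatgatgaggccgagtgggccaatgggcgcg

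Isg15 held 3 overlapping cores in 1 run, the nearest 66 bases before the start; the distance is counted to the first base of the match. Ifit1 held 2, the nearest 85 bases before it. Members without either set of letters in this window included Irf7, Irf9, Oasl2, Ifi44, H2-K1 and H2-D1, which says only that these letters are not in these 300 bases.

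Between 15 and 24 months, over both labelled genotypes, 11 of 37 tested members rose (29.7%), none fell, and 35 of 37 had a higher value; of all 15064 genes, 9.41% were called higher and 6.97% lower. The members' median log2 fold change was 0.36, against 0.02 over all genes. Those called were Irf7 and Irf9 among the transcription factors, Ifit3, Rsad2, Oasl2, Samhd1, Rtp4 and Ifi44 among the effectors, Parp14, Gbp7 and Nlrc5. No sensor was called. At an unadjusted p below 0.05 stood 51.4% of the members and 31% of all genes. When each library was left out in turn, 8 to 13 members were called and 32 to 37 had higher values. Oasl2, Rsad2, Parp14, Ifi44, Irf9, Samhd1 and Gbp7 were called in all 23 alternatives. Ifit3 was not called without Wt15Mchow205, Wt15Mchow227, CrAT15Mchow185 or CrAT15Mchow204 (edgeR adjusted p up to 0.0709), Irf7 without CrAT15Mchow185 or CrAT15Mchow204 (up to 0.0546), and Rtp4 without Wt15Mchow227 or CrAT15Mchow204 (up to 0.0663).

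**Figure D2:**
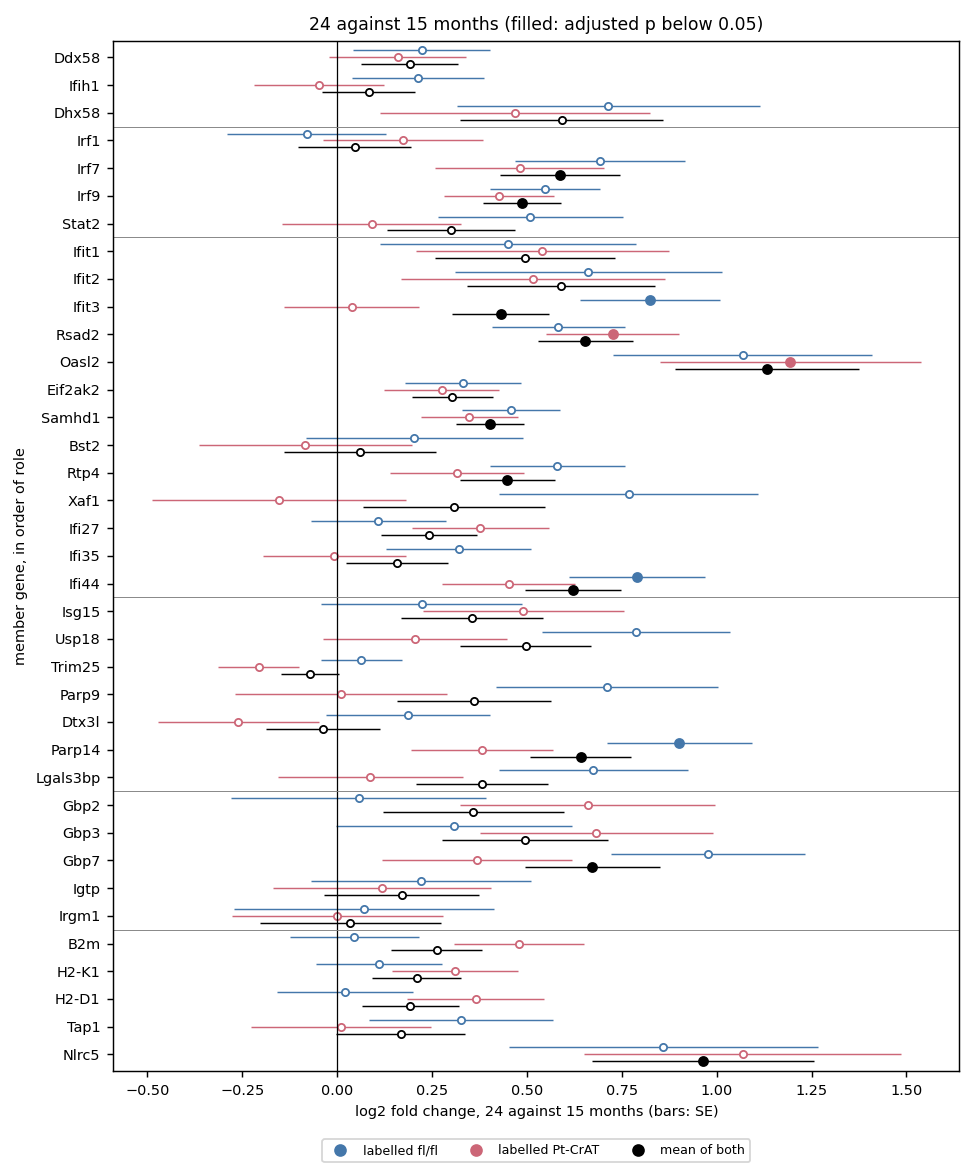
Points are log2 fold changes from 15 to 24 months for the 37 tested members, with bars of 1 SE, in the labelled fl/fl (blue), the labelled Pt-CrAT (red) and their mean (black); filled points have an edgeR adjusted p below 0.05. Of the 37 black points, 35 lie above 0 and 11 are filled.

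Irf9, the DNA-binding partner of Stat2, separated the ages fully. Its CPM at 15 months was 17.6, 18.5 and 16.0 in the libraries labelled fl/fl and 19.9, 19.2 and 14.7 in those labelled Pt-CrAT. At 24 months it was 21.6, 29.6, 28.1, 25.3 and 22.4 in fl/fl and 25.1, 28.6, 22.6, 23.04 and 21.1 in Pt-CrAT. All 10 libraries at 24 months were above all 6 at 15 months, as for 1.79% of all genes. The log2 fold change was 0.49 (SE 0.10, edgeR adjusted p = 0.00296). Parp14, an ADP-ribosyltransferase, was the other member with no overlap. Its CPM was 14.5, 15.0 and 10.8 in the labelled fl/fl and 16.9, 16.5 and 16.6 in the labelled Pt-CrAT at 15 months. It was 21.6, 27.8, 27.2, 29.3 and 20.1 in fl/fl and 23.5, 21.9, 19.6, 18.9 and 24.6 in Pt-CrAT at 24 months, a log2 fold change of 0.64 (SE 0.13, edgeR adjusted p = 0.00285).

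Oasl2, a member of the oligoadenylate synthetase family, showed the greatest change among the called members. It was at 2.98, 2.82 and 1.998 CPM in the labelled fl/fl and 3.69, 2.48 and 0.965 CPM in the labelled Pt-CrAT at 15 months. At 24 months fl/fl had 6.50, 7.08, 5.96, 4.16 and 3.66 CPM and Pt-CrAT 7.54, 6.61, 3.76, 4.24 and 5.30 CPM. Only Wt24Mchow168 did not exceed the highest 15-month library. The log2 fold change was 1.13, a 2.19-fold rise (SE 0.24, edgeR adjusted p = 0.00336). Rsad2 was at 93.1, 83.4 and 91.1 CPM in the labelled fl/fl at 15 months and at 127, 126, 123.4, 153.6 and 137 CPM at 24 months. In the labelled Pt-CrAT it was at 108, 79.0 and 54.9 CPM and then at 184, 128, 106, 123.9 and 123.7 CPM. Here too 9 of 10 libraries at 24 months exceeded the highest at 15 months, and the log2 fold change was 0.65 (SE 0.12, edgeR adjusted p = 0.00138).

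Ifi44, an interferon-induced effector, was at 12.4, 13.9 and 11.0 CPM in the labelled fl/fl and 17.0, 15.0 and 13.0 CPM in the labelled Pt-CrAT at 15 months. At 24 months it was at 19.4, 24.8, 25.3, 24.2 and 13.9 CPM in fl/fl, and in Pt-CrAT at 19.5, 20.7, 21.6, 18.005 and 22.9 CPM. Wt24Mchow168 was again the exception, within the 15-month range, and the log2 fold change was 0.62 (SE 0.13, edgeR adjusted p = 0.00227). Irf7, the factor that amplifies the type I response, was at 8.18, 8.73 and 8.61 CPM in the labelled fl/fl and 12.0, 7.22 and 6.68 CPM in the labelled Pt-CrAT at 15 months. At 24 months it was at 12.9, 13.3, 14.5, 16.6 and 11.5 CPM in fl/fl, and in Pt-CrAT at 9.83, 11.3, 11.3, 13.2 and 14.5 CPM. CrAT15Mchow183 overlapped the older libraries. The log2 fold change was 0.59 (SE 0.16, edgeR adjusted p = 0.0146). Samhd1, which degrades deoxynucleotides, ranged from 24.1 to 36.1 CPM at 15 months and from 32.7 to 44.6 CPM at 24 months (0.40, SE 0.09, adjusted p = 0.00483).

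The other 4 called members were Gbp7, a guanylate-binding protein (log2 fold change 0.67, SE 0.18, edgeR adjusted p = 0.0138), Rtp4 (0.45, adjusted p = 0.0178), Ifit3 (0.43, adjusted p = 0.0239) and Nlrc5, the transactivator of class I genes (0.96, adjusted p = 0.0269). Nlrc5 was a low gene: its highest library, Wt24Mchow165, had 4.09 CPM. Without that library its log2 fold change was 0.79 and it was no longer called, nor without Wt15Mchow225, Wt15Mchow227, CrAT15Mchow183 or CrAT15Mchow185 (edgeR adjusted p up to 0.0752 over the alternatives). The class I genes that Nlrc5 is known to drive had smaller values that did not pass: 0.26 for B2m (SE 0.12), 0.21 for H2-K1 (SE 0.12), 0.19 for H2-D1 and 0.17 for Tap1, the peptide transporter.

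Members not called included widely used reporters of the response. Isg15 had a log2 fold change of 0.36 (SE 0.19, edgeR adjusted p = 0.197), Ifit1 0.50 (SE 0.24, adjusted p = 0.155) and Usp18, the protease that removes Isg15, 0.50 (SE 0.17, adjusted p = 0.0517). Stat2 had 0.30, the RIG-I gene Ddx58 0.19 and the interferon gamma-induced Gbp2 0.36. Values near 0 were those of Irf1 (0.05), Bst2, the virion tether (0.06), Irgm1 (0.04) and Dtx3l (-0.04). Trim25 was the other member with a value below 0 (-0.07). The remaining 11 members ran from 0.08 (Ifih1, the RNA sensor MDA5) to 0.59 (Ifit2 and Dhx58), with Eif2ak2, the RNA-activated kinase PKR, nearest to passing (0.30, SE 0.11, adjusted p = 0.0548). The interferon gamma-linked members, Irf1, 5 GTPases and 5 class I genes, held 2 of the 11 calls, Gbp7 and Nlrc5. Of all genes 9.41% were called higher. Whether the interferon gamma-linked members differ from the others was not tested.

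**Figure D3:**
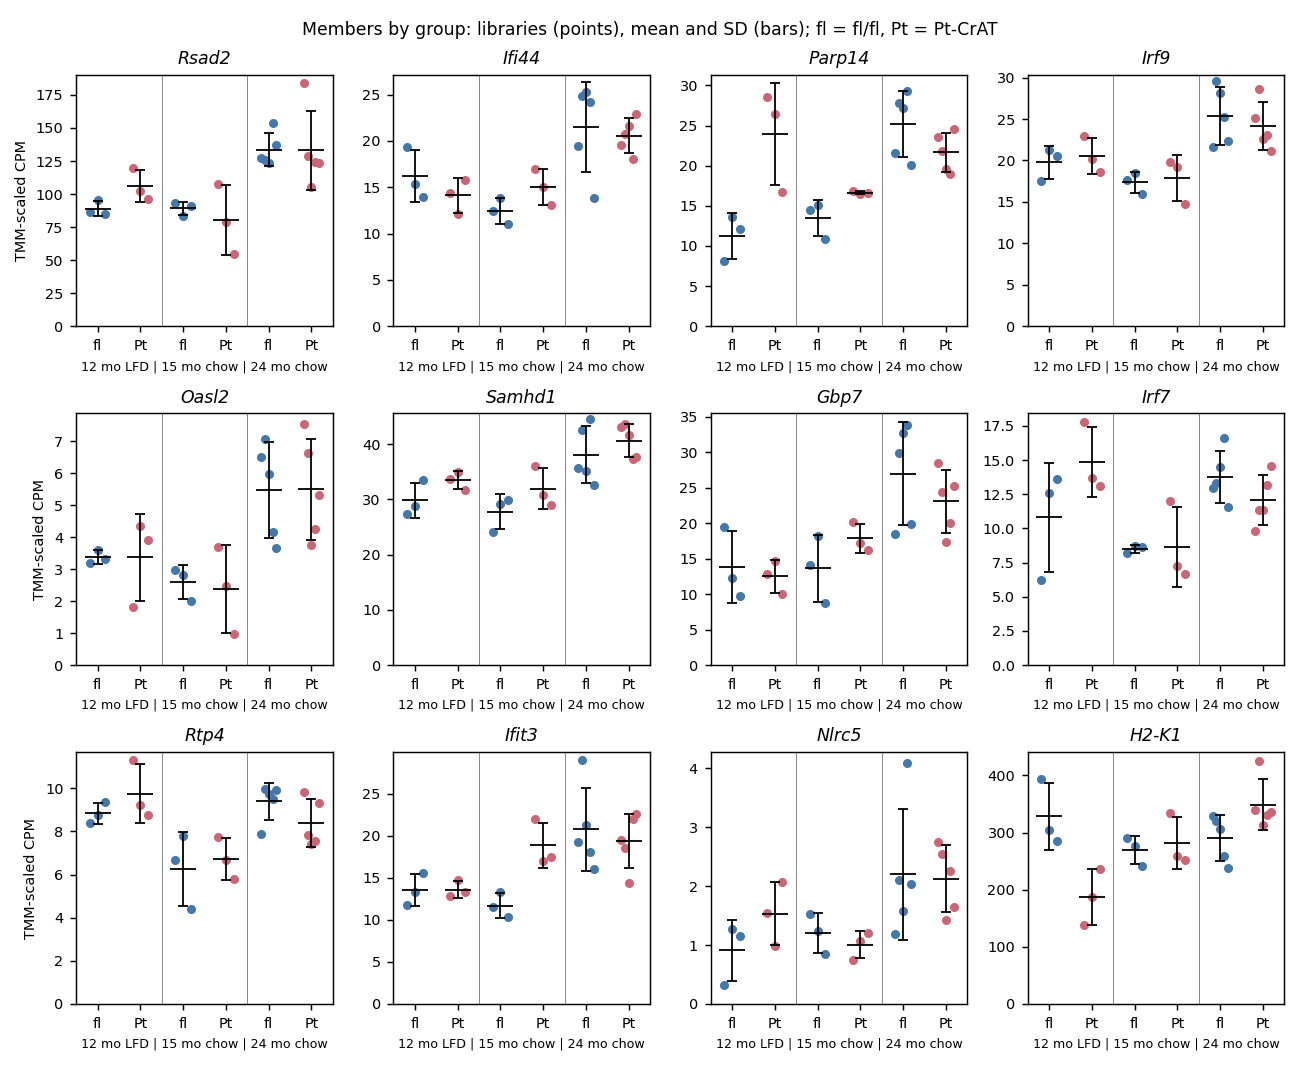
TMM-scaled CPM of the 11 members called between 15 and 24 months, and of H2-K1, in each library (points; blue fl/fl, red Pt-CrAT), with the group mean and SD as black bars, by setting from left to right. For Irf9 and Parp14 every 24-month point lies above every 15-month point, and H2-K1 is lowest in the Pt-CrAT libraries at 12 months.

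Of the 11 called members, 8 had a promoter entry, of which 3 held an ISRE core (37.5%): Ifit3, Rsad2 and Gbp7. Of the 23 other members with an entry, 13 held one (56.5%). The share with the letters was thus lower among the called members, a difference that was not tested.

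Within each label the same comparison had fewer calls. In the labelled fl/fl, 3 of 37 members rose and none fell, against 0.823% and 0.478% of all genes: Parp14 (log2 fold change 0.90, SE 0.19, edgeR adjusted p = 0.0221), Ifit3 (0.82, SE 0.18, adjusted p = 0.0275) and Ifi44 (0.79, SE 0.18, adjusted p = 0.0311). All members but Irf1 (-0.08) had higher values, 36 of 37, with a median of 0.45 against 0.02 over all genes. In 12 of 38 members (31.6%) every 24-month library was above every 15-month library, as in 8.7% of all genes, and in none was every one below (8.26% of all genes). At an unadjusted p below 0.05 stood 17 of the 37 (45.9%) and 21.7% of all genes. These 3 calls rest on most of the libraries: no member was called without Wt15Mchow205, Wt15Mchow225, Wt15Mchow227, Wt24Mchow154, Wt24Mchow164 or Wt24Mchow165, 4 without Wt24Mchow168, and 7 without Wt24Mchow145.

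In the labelled Pt-CrAT, 2 of 37 rose and none fell, where 5.61% of all genes were called higher and 5.71% lower: Rsad2 (0.73, SE 0.18, edgeR adjusted p = 0.0114) and Oasl2 (1.19, SE 0.34, adjusted p = 0.0279). Irf9 came next without passing (0.43, adjusted p = 0.0567). Higher values were found for 30 of 37, with a median of 0.32 against 0.04. In 6 of 38 members (15.8%) all 24-month libraries were above all 15-month ones, near the 10.5% of all genes, and Trim25 was the 1 member all below (11.3% of all genes). At an unadjusted p below 0.05 stood 10 of the 37 (27%) and 27.5% of all genes. No member was called without CrAT15Mchow185 or CrAT15Mchow204, and 1 was called without CrAT24Mchow123 or without CrAT24Mchow124.

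Ifit3 shows how the 15-month labels enter. Its CPM was 11.5, 13.3 and 10.4 in the labelled fl/fl at 15 months but 21.98, 17.1 and 17.5 in the labelled Pt-CrAT, and at 24 months 19.3, 29.0, 21.3, 18.04 and 16.1 in fl/fl and 19.5, 18.5, 14.4, 21.98 and 22.6 in Pt-CrAT. The 3 low libraries are those labelled fl/fl at 15 months. The age comparison in fl/fl (0.82) and the 15-month label comparison (0.69) share those 3 libraries, so their values are not independent, and in the labelled Pt-CrAT the change with age was 0.04 (SE 0.18).

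Between the labels at 15 months no member passed with edgeR, nor did any gene (0% of 15064); at an unadjusted p below 0.05 stood 2 members and 8.29% of all genes, and DESeq2 and limma-voom called 0 members too. Of the 37 members, 30 were higher by value in the labelled Pt-CrAT, with a median of 0.18 against 0.01 over all genes. The count was 20 without CrAT15Mchow183 and 23 without Wt15Mchow227. The smallest p-values were those of Ifit3 (0.69, SE 0.20, edgeR adjusted p = 0.581), Parp9, the ADP-ribosyltransferase partner of Dtx3l (0.72, SE 0.32, adjusted p = 0.581), and Dhx58, the sensor LGP2 (0.83, SE 0.44, adjusted p = 0.581). In 7 of 38 members (18.4%) the labelled groups did not overlap, all above, as in 11.6% of all genes, and none was all below (12.7%).

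At 24 months, where Crat followed the labels, no member and no gene passed between Pt-CrAT and fl/fl with edgeR (0% of 15064); at an unadjusted p below 0.05 stood 1 member and 9.35% of all genes, and DESeq2 and limma-voom called 0 members too. Crat itself did not pass here (log2 fold change -1.04, SE 0.21, edgeR adjusted p = 0.177), so a 2.06-fold lower level went uncalled. Higher values in Pt-CrAT were found for 19 of 37 members and the median was 0.00. In all 38 members the groups overlapped, and full separation was seen upward in 0.737% and downward in 0.797% of all genes. B2m had the smallest p. It was at 162, 115, 143, 115 and 125 CPM in fl/fl, and in Pt-CrAT at 199, 235, 155, 144 and 166 CPM, a log2 fold change of 0.44 (SE 0.15, edgeR adjusted p = 0.461). Dhx58 had 0.58 (SE 0.31, adjusted p = 0.547) and Xaf1, an apoptosis-linked effector, -0.57 (SE 0.28, adjusted p = 0.536). Isg15 overlapped broadly, at 5.24 to 14.2 CPM in fl/fl, and in Pt-CrAT at 8.11 to 13.7 CPM (0.28, SE 0.22). For Dhx58, 4 of 5 Pt-CrAT libraries were above the highest of fl/fl (1.13 CPM), all but CrAT24Mchow124. Dhx58 is a low gene, with 11 to 15 reads per fl/fl library and 11 to 33 per Pt-CrAT library at 24 months. For Xaf1, 4 of 5 fl/fl libraries were above the highest of Pt-CrAT (1.44 CPM), all but Wt24Mchow168. How many of all genes split in this way was not counted.

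**Figure D4:**
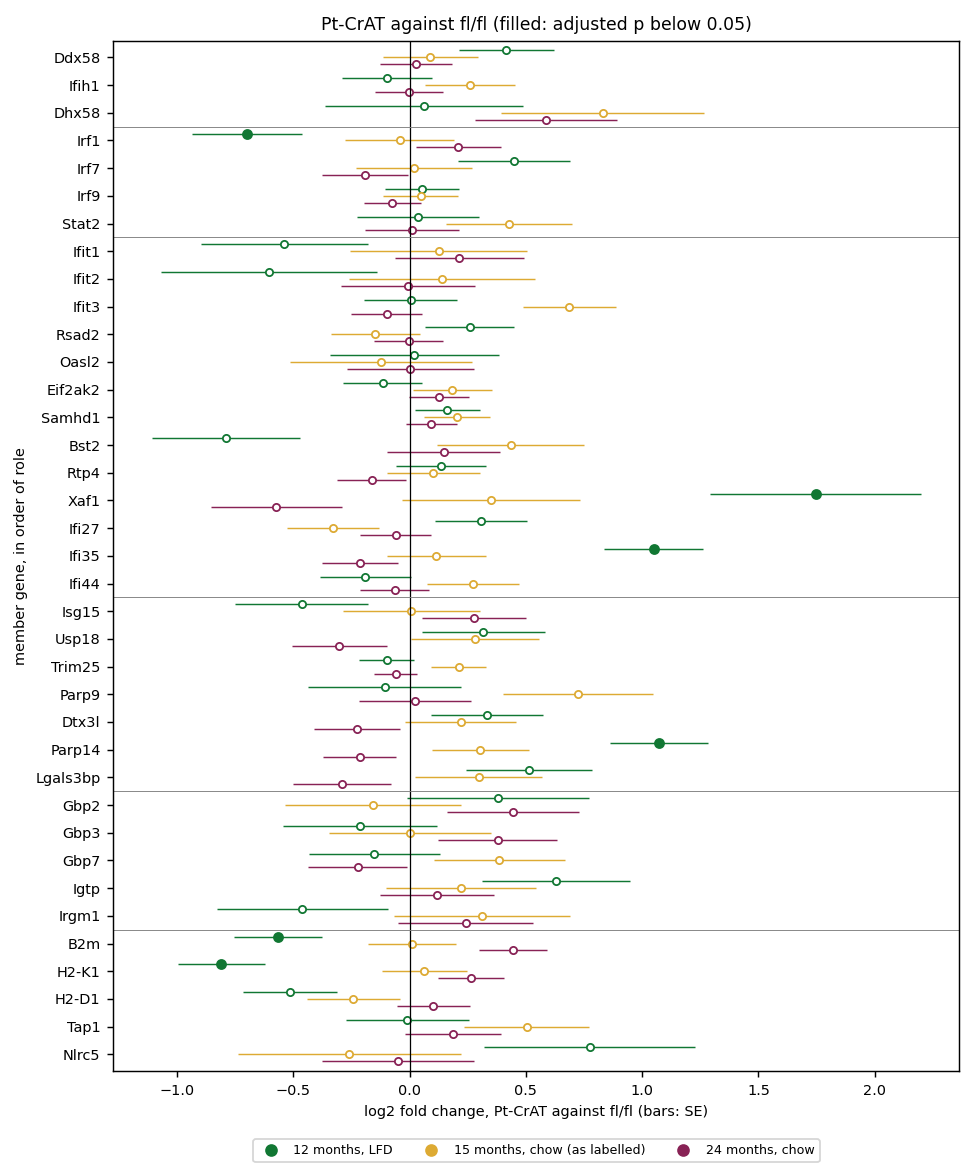
Points are log2 fold changes of Pt-CrAT against fl/fl for the 37 tested members at 12 months (green), 15 months as labelled (yellow) and 24 months (purple), with bars of 1 SE; filled points have an edgeR adjusted p below 0.05. Filled points occur at 12 months only, 3 above 0 and 3 below; the purple points scatter around 0.

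At 12 months on LFD, 3 members were higher and 3 lower in Pt-CrAT, 6 of 37 (16.2%), which is the background share: 16.4% of all genes were called, 8.41% higher and 7.95% lower. The median over members was 0.02 and 20 of 37 had higher values. At an unadjusted p below 0.05 stood 8 members and 33.7% of all genes, and 5 of 38 members were all above and 4 all below (16.3% and 13.8% of all genes). The 3 higher members were Xaf1, Parp14 and Ifi35. Parp14 was at 8.07, 13.6 and 12.1 CPM in fl/fl, and in Pt-CrAT at 28.6, 26.5 and 16.7 CPM (1.07, SE 0.21, edgeR adjusted p = 0.00633). Ifi35 was at 14.2, 14.2 and 15.5 CPM and at 37.3, 31.3 and 22.5 CPM (1.05, SE 0.21, adjusted p = 0.00688). Xaf1, a low gene, was at 0.480, 0.200 and 0.271 CPM and at 1.19, 1.23 and 0.867 CPM (1.75, SE 0.45, adjusted p = 0.0168). None of the 3 overlapped between genotypes.

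The 3 lower members were the class I chains H2-K1 and B2m, and the transcription factor Irf1. H2-K1 was at 394, 304 and 286 CPM in fl/fl, and in Pt-CrAT at 138, 187 and 236 CPM (-0.81, SE 0.18, edgeR adjusted p = 0.01). B2m was at 179, 139 and 173 CPM and at 86.9, 109 and 134.7 CPM (-0.57, SE 0.19, adjusted p = 0.0444), and Irf1 at 36.2, 32.5 and 26.3 CPM and at 14.3, 17.6 and 25.9 CPM (-0.70, SE 0.24, adjusted p = 0.0455). H2-D1 (-0.51, adjusted p = 0.0777) and Bst2 (-0.79, adjusted p = 0.0864) had lower values without passing. Tap1 had -0.01, and Nlrc5 a higher value (0.77, SE 0.46, adjusted p = 0.238). Isg15 had -0.47 and Irf7 0.45, neither passing. In Pt-CrAT the values of CrAT12MLFD345, the deepest library, lay nearest to those of fl/fl for all 6 called members.

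These 12-month calls rest on few libraries. No member was called without CrAT12MLFD328, 2 without CrAT12MLFD337 and 3 without Wt12MLFD326, and none when the 6 libraries were fitted alone, where 1 gene of all was called. All 6 adipocyte markers tested were called higher in Pt-CrAT at 12 months, with a summed level at 66.9 to 250.5 CPM in fl/fl, and in Pt-CrAT at 340.4 to 819.7 CPM, and their part in the members' values was not tested.

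The genotype difference itself changed between settings for 6 members, the same 6 that were called at 12 months. This contrast shares the libraries at 12 months, so its values are not independent of the 12-month values. Between 12 and 24 months it rose for H2-K1 (by 1.07 on the log2 scale), B2m (1.01) and Irf1 (0.91), and fell for Xaf1 (-2.32), Parp14 (-1.29) and Ifi35 (-1.26), again at the background share (8.34% of all genes higher, 8.66% lower). Only Xaf1, Parp14 and Ifi35 were called without CrAT12MLFD328, and 10 members were without Wt12MLFD368. Between 12 and 15 months and between 15 and 24 months no member and no gene passed with edgeR (0% each). DESeq2 and limma-voom called 0 members too. At an unadjusted p below 0.05 stood 8 members (21.6%) between 12 and 15 months, against 11.9% of all genes. Between 15 and 24 months it was 1 member (2.7%), against 15% of all genes. Averaged over the 3 settings no member passed, where 0.0266% of all genes did (20.5% at an unadjusted p below 0.05); Parp14 was nearest (0.39, edgeR adjusted p = 0.134), and was called without CrAT12MLFD345 (0.46, adjusted p = 0.0391). That average takes the 15-month labels as given. Over 12 and 24 months only, a mean added after the data were seen, again no member passed (0.186% of all genes), and Parp14 was again nearest (0.43, SE 0.13, edgeR adjusted p = 0.136).

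By library, the mean of the members' log2(CPM + 1), each relative to its own mean over the 22 libraries, was lowest in Wt15Mchow227 (-0.394) and highest in CrAT24Mchow124 (0.305) and Wt24Mchow154 (0.292). At 12 months it lay between -0.1665 and -0.0958 in all 6 libraries. At 24 months it lay between -0.0707 and 0.292 in fl/fl and between -0.0081 and 0.305 in Pt-CrAT. The highest group mean of a member was in Pt-CrAT at 24 months for 15 of the 38 and in fl/fl at 24 months for 10, and the lowest was in neither for any member. The libraries labelled fl/fl at 15 months held the lowest for 16.

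**Figure D5:**
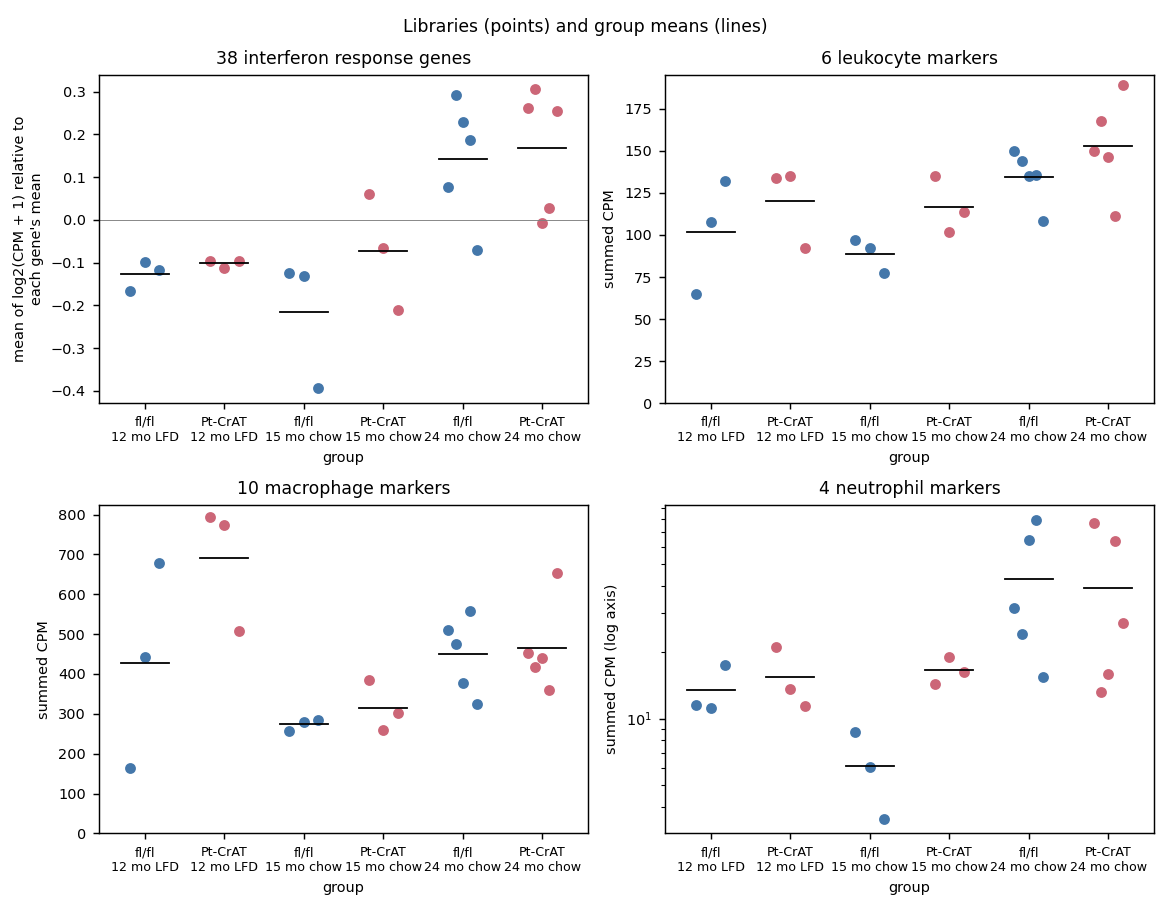
Each point is a library and each line a group mean: the members' mean log2(CPM + 1) relative to each gene's own mean, and the summed CPM of 6 leukocyte, 10 macrophage and 4 listed neutrophil markers (log axis for neutrophils). The listed neutrophil marker Csf3r was not in the count table and adds nothing to the sum. The group means of all 4 measures are higher at 24 than at 15 months under either label. At 12 months macrophage sums span 164.1 to 792.9 CPM and the members' mean is below 0 in all 6 libraries. C1qa alone spans 72.1 to 606 CPM in those 6 libraries.

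The summed leukocyte, macrophage and neutrophil markers also had higher group means at 24 than at 15 months under either label. Of all genes, 9.41% were called higher and 6.97% lower over both labels, for comparison with the marker counts over both labels that follow. Between 15 and 24 months the summed CPM of 6 leukocyte markers went from 77.2–96.8 to 108.3–150.1 in the labelled fl/fl and from 101.6–135.3 to 111.1–189.2 in the labelled Pt-CrAT; 6 of 6 had higher values over both labels and 1 was called. The 10 macrophage markers went from 255.9–285.2 to 325.6–559.0 and from 260.1–385.9 to 360.2–652.1 CPM, with 5 called higher. Of 4 neutrophil markers listed, Csf3r was not in the count table, and 2 were tested and both rose. Of 6 B and plasma cell markers tested 2 rose. None of the 7 T and NK cell markers tested passed. No leukocyte or macrophage marker of the lists was at 0 in any library, whereas Retnlg was at 0 in 6 libraries, and Cd3e, Gzma and Ccr9 in 2 each. Of 10 proximal tubule markers 5 were called lower at 24 months, and of 4 tested tubular injury genes 3 were called higher. All 4 urothelial markers tested were called higher over both labels, with a median log2 fold change of 2.45. Their sum went from 6.50–8.18 to 7.99–22.3 CPM in the labelled fl/fl and from 0.637–1.81 to 5.11–24.2 CPM in the labelled Pt-CrAT, and Upk2 was at 0 in 3 libraries and Krt5 in 5. No adipocyte marker was called over both labels, and 5 of 6 had lower values. In the labelled Pt-CrAT all 6 had lower values and 1 was called, with a sum that went from 173.2–233.5 to 29.5–126.1 CPM; in the labelled fl/fl it went from 129.3–251.8 to 53.8–308.2 CPM. In bulk cortex, more or fewer cells of a type and more or less RNA per cell cannot be told apart, and the part of these cell types in the members' change was not tested. At 12 months the macrophage sum was 164.1, 441.5 and 678.6 CPM in fl/fl, where the members' mean was -0.1665, -0.0983 and -0.1169. In Pt-CrAT it was 792.9, 773.7 and 508.1 CPM, where that mean was -0.0964, -0.1138 and -0.0958. Much of the macrophage sum was C1qa, at 72.1, 299 and 509 CPM in fl/fl and 606, 598 and 357 CPM in Pt-CrAT. The macrophage markers did not all move alike. Csf1r was higher in every Pt-CrAT library than in any fl/fl library, and Adgre1 and C1qc were lower in every one.

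The genes around the members in the pathway were read from lists of named genes. None of 9 interferon genes, type I, II or III, was in the count table. That table holds no gene with fewer than 66 reads in total, so absence from it does not show that a gene had no reads. Of 10 receptor and kinase genes, 2 rose between 15 and 24 months over both labels and none fell (20%, against 9.41% of all genes called higher and 6.97% lower): Ifnar1 (0.74, SE 0.21, edgeR adjusted p = 0.0191) and Ifnar2 (0.35, SE 0.09, adjusted p = 0.0125), the chains of the type I receptor. Ifnar1 was at 5.09 ± 0.227 CPM in the labelled fl/fl and 7.25 ± 1.38 CPM in the labelled Pt-CrAT at 15 months (SD, n = 3 each), and at 10.2 ± 2.89 and 10.2 ± 2.92 CPM at 24 months (n = 5 each). Without CrAT15Mchow185 it was not called (0.68, adjusted p = 0.0577). The chains of the interferon gamma receptor had values of 0.07 (Ifngr1) and -0.09 (Ifngr2), neither passing. No gene of this list passed between genotypes at any age.

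Among 16 tested sensing genes 2 rose and 2 fell with age (25% called, against 16.4% of all genes). They were Mb21d1, the DNA sensor cGAS (1.01, SE 0.20, edgeR adjusted p = 0.00192), and Tmem173, its adaptor STING (0.54, adjusted p = 0.012), against Ticam1, the adaptor of Tlr3 (-0.66, adjusted p = 0.00528), and Mavs, the adaptor of RIG-I (-0.36, adjusted p = 0.0474). The Mavs call was lost in 15 of 23 alternatives. None of 6 negative regulators passed. Of 55 other interferon-stimulated genes tested, 18 rose and 3 fell (38.2% called, against 16.4% of all genes), and 45 had higher values, with a median of 0.39. The 4 with the greatest changes were Isg20, an exonuclease (1.47, adjusted p = 0.0154), Oas2 (1.35, adjusted p = 0.0118), Ifitm1, which restricts virus entry (1.30, adjusted p = 0.000323), and Gbp9 (1.10, adjusted p = 0.00606). Ifitm1 was at 5.501 ± 1.69 and 3.56 ± 1.16 CPM at 15 months and at 10.4 ± 2.05 and 11.5 ± 2.44 CPM at 24 months, in the labelled fl/fl and Pt-CrAT. Those that fell were Mov10, Ly6a and Parp10. Of 22 other antigen presentation genes 2 rose (9.09%, near the 9.41% of all genes), H2-Q4 (1.10, adjusted p = 0.0246) and the class II gene H2-Aa (0.42, adjusted p = 0.0355), and none fell; their calls were lost in 4 and 8 of 23 alternatives. At 12 months 3 of these 22 (13.6%) were called lower in Pt-CrAT, against 7.95% of all genes, and none higher: Tap2 (-2.32, SE 0.76), H2-T22 (-1.84, SE 0.59) and H2-Q7 (-0.996, SE 0.27). Their calls were lost in 6, 6 and 5 of 13 alternatives (adjusted p up to 0.752, 0.641 and 0.506), among them those without Wt12MLFD326, CrAT12MLFD328 or CrAT12MLFD337. In the sensing and other interferon-stimulated lists the 12-month calls went both ways, with at most 4 named per list. Irf3, Ifi27l2a and Slfn2 were called higher in Pt-CrAT, with calls lost in 4, 4 and 7 of 13 alternatives. Tbk1, Helz2 and Trafd1 were called lower, with calls lost in 6, 6 and 7.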

How the data were processed

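RNA of kidney cortex was extracted with TRIzol and made into QuantSeq 3' libraries, per the labels' protocols. Per the submitters' processing notes, the build was GRCm38, with R 3.4.3 and DESeq2 1.18.1. How reads were aligned, and with what counter and strand setting they were counted, is not given in the sources used here. The authors deposited read counts per gene, from which all values come, and a normalized signal, each count divided by 1 size factor per library, which was used for gene names. No gene had fewer than 66 reads in total.

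edgeR 4.0.16 (R 4.3.3) was fitted once to 22 libraries in 6 groups, with TMM scaling, filterByExpr (15064 genes left), the robust quasi-likelihood test and Benjamini-Hochberg adjustment over all genes, at 0.05. Of 10 contrasts, the mean age change was added after the data were seen. Alternatives were DESeq2 1.42.0, limma-voom (limma 3.58.1), other scaling, no filter, and left-out libraries; the fit was tested on simulated data. The members and lists were chosen with earlier results of these data known. Named members were, per comparison, up to 6 passing in each direction by size of change (all 11 for the mean age change), or the 3 with the smallest p where fewer than 3 passed, plus Irf7, Isg15, Ifit1, Ifit3, Stat2, Ddx58, Bst2, B2m, H2-K1, Gbp2, Irf1 and Usp18 and the members of highest and lowest level; others named were chosen after their values were seen. Nothing in the labels says that animals shared a litter or day, and p-values measure the spread between these libraries, 1 per animal title. The common biological coefficient of variation was 20.5%. The values of 1 gene of the pathway lists are not reported here.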

Additional observations from a re-analysis of the deposited data

Results flagged for a closer look

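The groups of 5 at 24 months were searched for a library standing apart from the other 4 by Dixon's test, in 76 sets of 1 member and 1 group; chance flags about 1 in 20 sets. There were 3 such libraries. H2-K1 in CrAT24Mchow124 was at 426 CPM and H2-D1 in the same library at 180 CPM, both above the other Pt-CrAT libraries. Rtp4 in Wt24Mchow145 was at 7.89 CPM, below the other fl/fl libraries.

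The genotype difference at 24 months differed from that at 12 months for 6 members by the test of the difference itself (edgeR contrast). That is 16.2% of the tested members, near the 17% of all genes called in this contrast. None of the 6 was called without CrAT12MLFD328 and Wt12MLFD326 together. On the log2 scale the change was 0.91 for Irf1, 1.01 for B2m and 1.07 for H2-K1, which were lower in Pt-CrAT at 12 months. It was -2.32 for Xaf1, -1.26 for Ifi35 and -1.29 for Parp14, which were higher in Pt-CrAT at 12 months. The settings also differ in diet.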

How the results depend on the processing

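No paired analysis was possible because the groups share no replicate numbers: each number in the titles is an animal's own. Counts of members called moved as follows. Here and in the left-out counts above, the number of all genes called under the same setting is mostly not given. Such counts therefore do not compare the members with all genes. At 12 months the count went from 6 to 0 with only the compared libraries and to 0 without CrAT12MLFD328 and Wt12MLFD326 together, and was 0 to 8 with each library left out. For age in fl/fl it went from 3 to 6 with library totals and to 11 with DESeq2 (0 to 7 with each library left out). For age in Pt-CrAT it went from 2 to 15 with library totals, and to 0 both with only the compared libraries and without CrAT24Mchow123 and CrAT24Mchow136 together (0 to 3). For both ages the mean over labels gave 11, itself 19 with library totals (8 to 13). Library totals moved the median of all genes by 0.24 (age in Pt-CrAT), 0.15 (mean age) and -0.12 (12 months), and the members stood as far above that median as before (0.27, 0.34 and 0.03). For the genotype difference between 24 and 12 months the count went from 6 to 0 without CrAT12MLFD328 and Wt12MLFD326 together (3 to 10), and for the mean genotype it was 0 to 1. It was 0 to 0 at 15 months, at 24 months and for the other 2 differences. No called member changed direction. Members with a higher value, with each library left out, numbered 18 to 21 at 12 months, 20 to 34 at 15, 15 to 23 at 24, 33 to 37 for age in fl/fl, 28 to 34 in Pt-CrAT and 32 to 37 for the mean. Where a group had 3 libraries, leaving out 1 also lowers the power. Apart from these effects of fewer samples, the cause was not tested. Low members, such as Xaf1, Dhx58 and Nlrc5, are limited by depth.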
